A study of Mus musculus with 6 samples.

Results

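Long intergenic noncoding RNAs (lincRNAs) are transcripts without a recognised open reading frame whose genes lie apart from protein-coding genes. The RNAs described here are the 251 genes annotated as lincRNA with a mean of at least 1 FPKM (fragments per kilobase of gene length, scaled to library depth) over all 6 libraries. They were chosen by this mean level, and not by the contrast between the groups. They came from 5559 lincRNA genes among the 54532 genes listed. Of the other lincRNA genes, 3554 were at 0 in every library and 1754 were detected below this mean. RNA was sequenced from Neuro2A (N2a) cells, a mouse neuroblastoma line that extends neurites when it differentiates, and the labels give the strain as C57BL/6. In 3 libraries the cells had been transfected with si-NC, a control siRNA, and in 3 with si-circRtn4, an siRNA against the back-splice junction of circRtn4, a circular RNA made from exons of the reticulon gene Rtn4. Each group received 1 siRNA in 1 cell line. The labels give Minimum Essential Medium with serum and no age or time point, while the methods of the study describe a change to a retinoic acid medium after transfection, so whether these cells were differentiating is not given. The question was which of these noncoding RNAs differed between the knockdown and the control.

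Between 13541198 and 15122063 reads stood behind the libraries, of which the 251 lincRNAs held 0.507% to 0.586%. All 10 neuroblastoma markers checked had a mean of at least 1 FPKM, against 1 of 12 markers of other cell types (Mbp, 3.81 FPKM). Of these 12, 1 (Aqp4) was at 0 in every library. The neuroblastoma markers Dbh and Th (means 3.29 and 1.63 FPKM) were counted through the si-NC libraries only. With si-circRtn4, Dbh was at 0.522, 0.621 and 0.664 FPKM and Th at 0.565, 0.815 and 0.756 FPKM. The summed neuroblastoma markers lay at 2494 to 2749 FPKM in si-NC and at 1070 to 1532 FPKM in si-circRtn4, and the other markers at 5.95 to 7.04 and 4.96 to 7.55 FPKM. The part of these marker levels in the differences between the groups was not tested. Rtn4 itself was at 61.0, 66.8 and 69.8 FPKM with si-NC and 50.1, 56.7 and 62.7 FPKM with si-circRtn4. These values do not check the knockdown, since any reads of the circle would be counted with those of the linear mRNA. Their log2 fold change was -0.22 (limma, adjusted p = 0.216, and 0.0447 with the replicate number as a block). In such bulk RNA, fewer cells that express a gene and less RNA per cell cannot be told apart. Nothing in the labels says that the 3 libraries of a group came from separate cultures, so p-values measure the spread between these libraries, which may be technical.

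LincRNAs are made by RNA polymerase II and are often capped, spliced and polyadenylated as mRNAs are. Some stay in the nucleus and build structures there, as Malat1 does in speckles, Neat1 in paraspeckles and Xist on the inactive X chromosome. Others are known mainly for the small RNAs that are cut from their introns, or for starting close to a coding gene whose transcription can run alongside theirs. Most members of the class have no known function.

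Most of the 251 lincRNAs were scarce. Their median level was 2.47 FPKM, against 9.68 FPKM for the protein-coding genes tested. Between 1 and 2 FPKM lay 95 of them, 127 reached 2 to under 10 FPKM, 27 reached 10 to under 100 FPKM, and only Gm26917 and Malat1 were at 100 FPKM or more. They were also short, with a median annotated length of 1417 bases against 4388 bases for coding genes, so that a median of 56.7 reads per library stood behind a lincRNA and 673 behind a coding gene. In 71 of them the mean was under 30 reads. The median standard error of the log2 fold change was 0.154 for lincRNAs and 0.0998 for coding genes, so a difference of a given size was less readily called in a lincRNA. Of the 251, 149 carry only a Gm number and 64 a RIKEN clone name. All were found in GENCODE M21 (GRCm38), 223 of them with a transcript of more than 1 exon. A mean of at least 1 FPKM was reached in both groups by 221, in si-NC alone by 12 and in si-circRtn4 alone by 18.

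After circRtn4 knockdown 12 lincRNAs rose and 8 fell. The call was an adjusted p under 0.05 in limma on log2(FPKM + 1), fitted to all 12749 genes that reached a mean of 1 FPKM, with Benjamini-Hochberg adjustment. Of the called lincRNAs, CT009704.1 and Gm30108 had a mean under 1 FPKM in 1 of the groups. A mean under 30 reads per library stood behind 4 of the called lincRNAs, and behind 71 of the 251. The 20 were 7.97% of the 251, where 9.19% of all genes tested were called, so the share was near that of genes in general. By direction the shares were 4.78% higher and 3.19% lower, against 4.36% and 4.82% of all genes. The groups did not overlap for 85 lincRNAs (33.9%, and 31.7% of all genes), which included all 20 that were called. The median log2 fold change of the 251 was 0.04, with 141 above 0 and 110 below, and that of all genes was 0.00. The median lay within the spread between libraries of a group (SD 0.046), and from the 10th to the 90th percentile the lincRNAs ran from -0.42 to 0.47.

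The counts moved with the fit. After scaling all libraries to an equal FPKM total (TPM), 18 lincRNAs were higher and 4 lower, so that 81.8% of the called lincRNAs were higher in place of 60%, with 10.8% of all genes called. All genes shifted in the same way, with 977 higher and 400 lower in place of 556 and 615. With the replicate number as a block, 25 were higher and 21 lower, or 18.3% of the lincRNAs against 19% of all genes. When every gene above 0 in at least 1 library was tested (28442 genes), 1 was higher and 0 were lower, with 65 at an unadjusted p under 0.05. Leaving out 1 library lowered the total called, among the lincRNAs and among all genes. Of all genes, 163 to 407 were then higher and 217 to 419 lower, beside 556 and 615 with every library. Of the si-NC libraries, replicate 1 left 12 higher and 6 lower when it was dropped, of which 11 were among the 20. Replicate 2 left 2 and 1, and replicate 3 left 4 and 4. Of the si-circRtn4 libraries, dropping replicate 1 left 3 higher and 1 lower, dropping replicate 2 also left 3 and 1, and dropping replicate 3 left 6 and 4. With limma-voom on reads recovered from the FPKM values, 13 lincRNAs were higher and 10 lower, 16 of them among the 20, and 833 and 808 of all genes. All 20 called lincRNAs kept their direction in each of the 14 alternative fits.

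**Figure D1:**
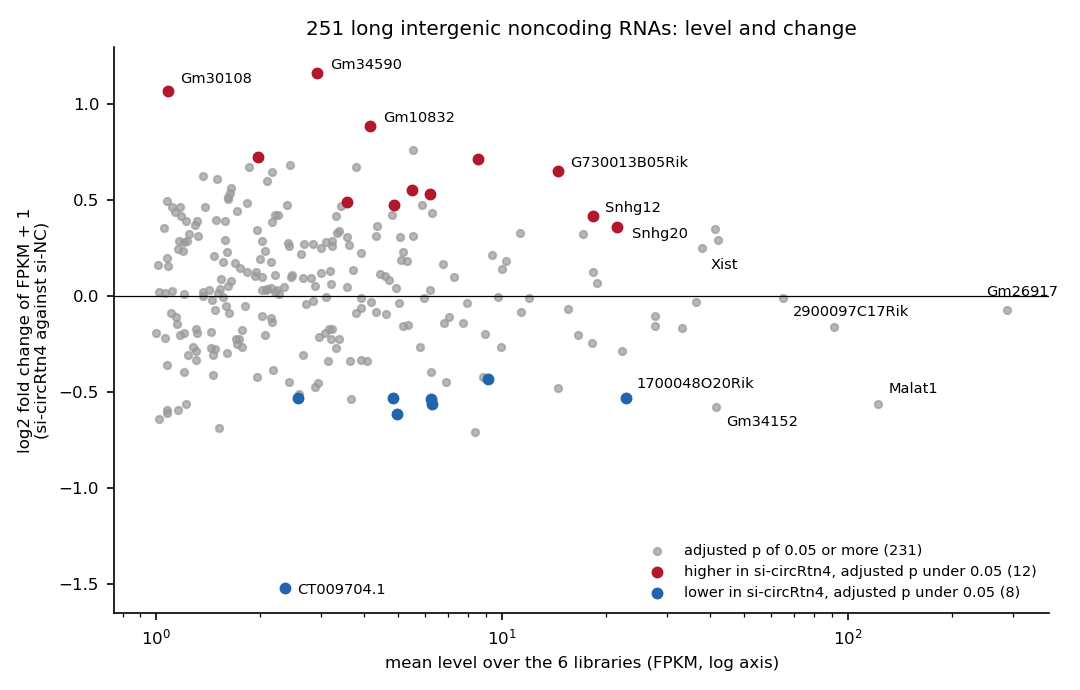
Mean level over the 6 libraries (FPKM, log axis) against the log2 fold change of FPKM + 1 between si-circRtn4 and si-NC for the 251 lincRNAs, 1 point each. The 12 red points (higher) and 8 blue points (lower) passed an adjusted p of 0.05, and the most abundant RNAs, Gm26917 and Malat1, did not.

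CT009704.1 (ENSMUSG00000116570, chromosome 16, 30789945 to 30793255, minus strand in GRCm38), a transcript of 3 exons, was at 6.65, 2.32 and 3.19 FPKM with si-NC and 0.523, 0.955 and 0.511 FPKM with si-circRtn4, so its level in the knockdown was 16.4% of that in the control. Every si-circRtn4 library lay below every si-NC library (log2 fold change -1.52, standard error 0.294, adjusted p = 0.0213, limma). Its si-circRtn4 mean was 0.663 FPKM, so it reached a mean of 1 FPKM only through the si-NC libraries and, like any gene chosen that way, had to differ. Only 2 to 27 reads per library stood behind it, and si-NC replicate 1 was far above the other libraries. When 1 library was left out the log2 fold change lay between -1.78 and -1.18, and the RNA stayed called without any 1 of the 3 si-NC libraries and was not called without any 1 of the si-circRtn4 libraries.

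The other 7 lower lincRNAs had log2 fold changes from -0.61 to -0.43. The most abundant of them was 1700048O20Rik (ENSMUSG00000043773, chromosome 9, 121937223 to 121947016, plus strand), at 31.2, 25.2 and 25.2 FPKM with si-NC and 17.2, 19.7 and 18.3 FPKM with si-circRtn4. It fell to 67.7% of the control level (log2 fold change -0.53, standard error 0.103, adjusted p = 0.0211, limma), with 515 to 989 reads per library and no overlap between the groups. Of its exonic bases, 18.9% are shared with exons of Gm49343, so part of its reads is uncertain. Gm28875, a transcript of 1 exon on chromosome 12, varied least among the control libraries. It stood at 5.74, 5.72 and 6.19 FPKM with si-NC and 3.72, 3.35 and 4.22 FPKM with si-circRtn4 and had an adjusted p of 0.0158 (limma, log2 fold change -0.53). Syne3, its nearest tested coding gene, lies 3244 bases away on the same strand. The groups of Syne3 did not overlap, and it was lower too without passing the test (log2 fold change -0.33, adjusted p = 0.0849, limma). Gm33699 on chromosome 9 went from 6.25 ± 1.34 to 3.71 ± 0.602 FPKM (SD, n = 3 each), and limma gave -0.61 on the log2 scale with an adjusted p of 0.0464. Its exons overlap those of Gm39348 on the opposite strand over 9.80% of their length, and Gm39348 was also lower (-0.54, adjusted p = 0.101 in limma and 0.0296 with the replicate block). Without stated strand in the counting, reads from such overlaps cannot be assigned to 1 of the genes.

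Gm38708 (ENSMUSG00000108010, chromosome 6, 88188397 to 88190681, minus strand) begins 3210 bases from the start of Gata2, a transcription factor of blood and sympathetic neuron development, on the opposite strand. The noncoding RNA was at 8.42, 7.58 and 6.65 FPKM with si-NC and 5.50, 4.46 and 4.67 FPKM with si-circRtn4 (log2 fold change -0.54, standard error 0.108, adjusted p = 0.0241, limma). It had 46 to 86 reads per library, and limma-voom on recovered reads did not call it (adjusted p = 0.0773). Gata2 was at 30.2, 29.8 and 28.6 FPKM with si-NC and 20.8, 21.2 and 23.2 FPKM with si-circRtn4 and fell as well (log2 fold change -0.42, standard error 0.0725, adjusted p = 0.0144, limma). In both genes the highest knockdown library lay below the lowest control library. Gm34030 (chromosome 8, 57331692 to 57334585, minus strand) lies 7059 bases from Hand2, which encodes a transcription factor of heart, limb and sympathetic neuron development, and fell from 10.6 ± 0.787 to 7.59 ± 0.674 FPKM (SD, n = 3 per group; log2 fold change -0.43, standard error 0.0891, adjusted p = 0.027, limma), while Hand2 had a log2 fold change of -0.10 (adjusted p = 0.593). Its value is uncertain, since 74.4% of its exonic bases lie opposite exons of 5033428I22Rik, which went the other way (0.31, adjusted p = 0.17 in limma and 0.0394 with the replicate block).

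Gm2379 on chromosome 13 was at 3.29, 3.74 and 2.62 FPKM with si-NC and 1.97, 1.80 and 1.93 FPKM with si-circRtn4 (log2 fold change -0.53, standard error 0.123, adjusted p = 0.0382, limma). It starts 14197 bases beyond the end of Lncenc1, a lincRNA known from naive embryonic stem cells, on the same strand. Lncenc1 was at 3.25, 2.77 and 3.64 FPKM with si-NC and 3.05, 1.87 and 3.10 FPKM with si-circRtn4, groups that overlap (-0.21, adjusted p = 0.457). The last of the lower RNAs, 4930516B21Rik, starts 74 bases from Exog, which encodes a mitochondrial nuclease, in the opposite direction. It went from 7.66 ± 1.22 to 4.87 ± 0.806 FPKM (SD, n = 3 per group; log2 fold change -0.56, standard error 0.137, adjusted p = 0.0449, limma), and Exog stood at 2.47, 2.32 and 2.34 FPKM with si-NC and 3.41, 3.62 and 2.88 FPKM with si-circRtn4 (log2 fold change 0.35, adjusted p = 0.0777).

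Among the higher lincRNAs, Gm34590 (ENSMUSG00000115333, chromosome 15, 36938864 to 36949605, plus strand) had the largest log2 fold change of FPKM + 1. The added 1 shrinks the changes of scarcer RNAs, such as Gm30108 below, so this is no ranking by ratio. Gm34590 was at 1.72, 1.01 and 1.56 FPKM with si-NC and 4.90, 4.27 and 4.08 FPKM with si-circRtn4, 3.09 times the control level by the group means (log2 fold change 1.16, standard error 0.139, adjusted p = 0.00402, limma). All knockdown libraries stood at more than 4 FPKM and all control libraries below 2 FPKM. It was the only lincRNA called in all 14 alternative fits, and its log2 fold change without 1 library lay between 1.03 and 1.25. On the same chromosome Gm49313 (chromosome 15, 38239702 to 38255310, minus strand) rose from 1.25 ± 0.446 to 2.68 ± 0.281 FPKM (SD, n = 3 per group; log2 fold change 0.73, standard error 0.159, adjusted p = 0.0326, limma), but only 9 to 29 reads per library stood behind it.

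Gm30108 (chromosome 14, 20794239 to 20796560, plus strand) was at 0.590, 0 and 0.477 FPKM with si-NC and 2.04, 2.0 and 1.38 FPKM with si-circRtn4 (log2 fold change 1.07, standard error 0.216, adjusted p = 0.0251, limma). Its si-NC mean was 0.356 FPKM, so it reached a mean of 1 FPKM only through the si-circRtn4 libraries, and a gene chosen that way had to differ. Its counts of 0 to 14 reads per library were the lowest of the called RNAs. It begins 151 bases from the start of Camk2g, a subunit of calcium/calmodulin-dependent kinase, in the opposite direction, and Camk2g itself had a log2 fold change of 0.06 (adjusted p = 0.679).

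Gm10832 (ENSMUSG00000115992, chromosome 16, 11031956 to 11036420, plus strand) lies inside Litaf, on the opposite strand. Litaf encodes a membrane protein of late endosomes and lysosomes. Gm10832 was at 3.12, 2.08 and 2.65 FPKM with si-NC and 6.82, 5.77 and 4.51 FPKM with si-circRtn4 (log2 fold change 0.89, standard error 0.158, adjusted p = 0.017, limma). Litaf was at 4.25, 3.93 and 4.24 FPKM with si-NC and 7.69, 8.05 and 7.66 FPKM with si-circRtn4 and rose too (log2 fold change 0.78, standard error 0.0732, adjusted p = 0.00254, limma). A second lincRNA opposite Litaf, Gm4262, was at 0.934, 0.489 and 0.756 FPKM with si-NC and 1.73, 1.16 and 1.39 FPKM with si-circRtn4, and its difference did not pass the test (log2 fold change 0.49, adjusted p = 0.109). No exon of either lincRNA overlaps an exon of another gene, but reads from unspliced Litaf RNA would fall on both, and whether they did was not tested.

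G730013B05Rik (ENSMUSG00000097694, chromosome 16, 50526245 to 50559459, plus strand) was the best measured of the larger rises, with 398 to 868 reads per library. It was at 12.3, 10.9 and 9.91 FPKM with si-NC and 21.3, 15.6 and 17.1 FPKM with si-circRtn4, which is 1.63 times the control by the group means (log2 fold change 0.65, standard error 0.126, adjusted p = 0.0214, limma). Gm32856 (chromosome 8, 129263641 to 129282844, plus strand) had similar support and was at 5.91, 4.84 and 8.04 FPKM with si-NC and 11.1, 10.1 and 11.1 FPKM with si-circRtn4 (log2 fold change 0.72, standard error 0.151, adjusted p = 0.0288, limma). Neither is close to a coding gene among those tested, and coding genes under a mean of 1 FPKM were not considered. The nearest ones tested lie 93855 bases (Bbx) and 29235 bases (2610044O15Rik8) away, and did not pass the test (-0.21, adjusted p = 0.282, and -0.04, adjusted p = 0.878).

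The other rises were smaller. Fam120aos, named for its place opposite Fam120a, starts 270 bases from that gene and was at 4.32, 4.75 and 5.62 FPKM with si-NC and 7.86, 7.98 and 6.69 FPKM with si-circRtn4 (log2 fold change 0.53, standard error 0.109, adjusted p = 0.0261, limma), while Fam120a had a log2 fold change of -0.05 (adjusted p = 0.688). Gm45589 on chromosome 8 rose by 0.56 (adjusted p = 0.0415), Gm21781 on chromosome 10 by 0.49 (adjusted p = 0.0455) and Gm11454 on chromosome 2 by 0.48 (adjusted p = 0.0151) in limma. Gm11454 was the tightest of them, at 4.27, 3.69 and 3.80 FPKM with si-NC and 6.01, 5.94 and 5.59 FPKM with si-circRtn4. Only 38 to 66 reads per library stood behind Gm11454, and limma-voom on recovered reads did not call it (adjusted p = 0.106). Gm45589 varied more, at 3.70, 4.61 and 4.37 FPKM with si-NC and 5.68, 6.35 and 8.15 FPKM with si-circRtn4.

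**Figure D2:**
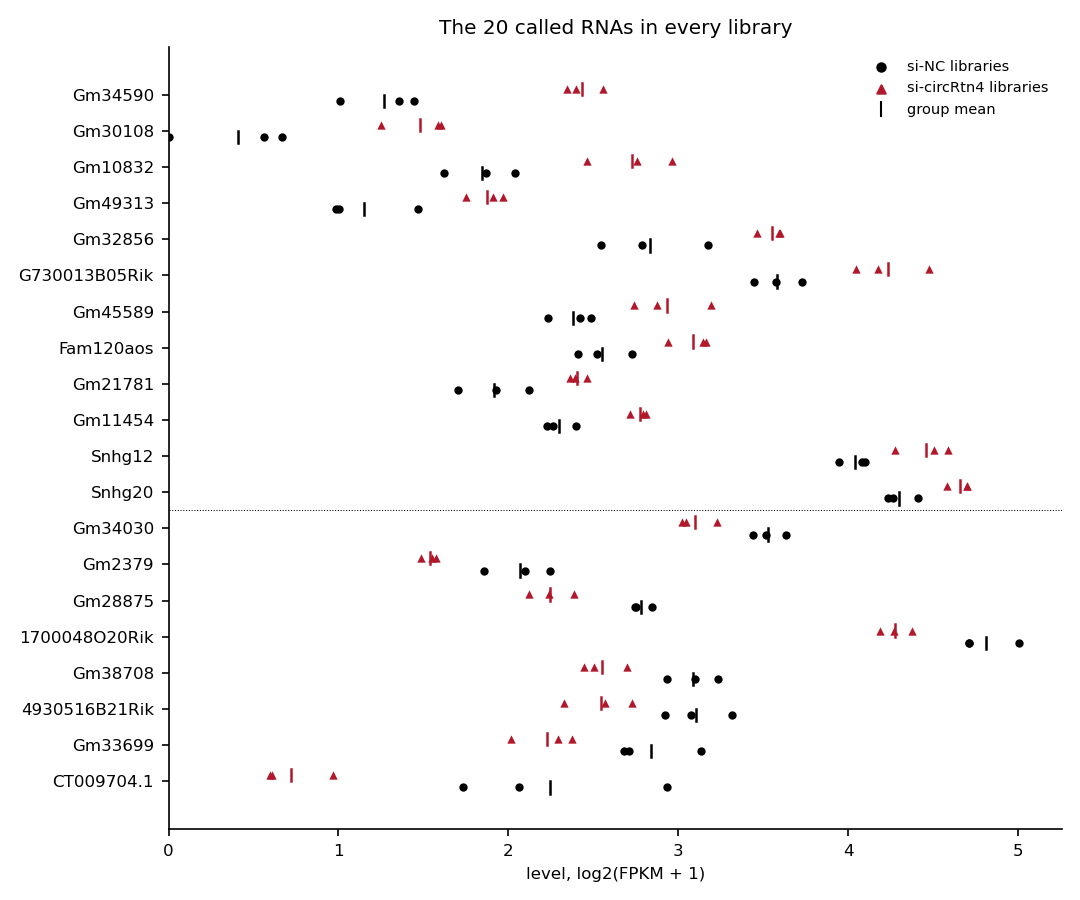
Level of each of the 20 called lincRNAs, log2(FPKM + 1), in the 3 si-NC libraries (black circles) and the 3 si-circRtn4 libraries (red triangles), with vertical bars at the group means. The 12 RNAs above the dotted line were higher and the 8 below it lower in the knockdown, and in none of the 20 do the groups overlap.

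Snhg12 and Snhg20, both called higher, are named as small nucleolar RNA (snoRNA) host genes. Introns of such genes yield snoRNAs, many of which guide modification of ribosomal RNA, while the spliced exons are often short-lived. The 1 entry of this kind inside Snhg20, Gm26083, is annotated as a scaRNA and not as a snoRNA. Snhg12 (ENSMUSG00000086290, chromosome 4, 132308623 to 132311024, plus strand) was at 16.1, 14.4 and 15.9 FPKM with si-NC and 18.4, 21.7 and 23.1 FPKM with si-circRtn4 (log2 fold change 0.42, standard error 0.0982, adjusted p = 0.0408, limma). Snhg20 (ENSMUSG00000086859, chromosome 11, 117076008 to 117078955, plus strand) was at 20.3, 17.8 and 18.2 FPKM with si-NC and 25.0, 25.0 and 23.0 FPKM with si-circRtn4 (log2 fold change 0.36, standard error 0.0787, adjusted p = 0.0323, limma). In each the lowest knockdown library was above the highest control library, with 500 to 813 and 712 to 1087 reads per library.

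A list of 24 snoRNA host genes of any biotype, chosen with earlier results of these data known, had 15 members tested. Of these, 4 rose, where 4.36% of all genes tested did, 0 fell, where 4.82% did, 11 had a log2 fold change above 0 and the median was 0.27, beside a median of 0.00 for all genes. The processed transcripts Snhg5 (0.33, adjusted p = 0.0488) and Snhg8 (0.54, adjusted p = 0.0332) rose with Snhg12 and Snhg20 (limma). Zfas1, at 45.6, 39.0 and 50.5 FPKM with si-NC and 55.6, 52.5 and 68.2 FPKM with si-circRtn4, and Snhg1, at 39.0, 35.0 and 41.0 FPKM with si-NC and 49.0, 41.0 and 47.7 FPKM with si-circRtn4, passed only with the replicate block (adjusted p = 0.117 and 0.154 without it, 0.0134 and 0.0312 with it). The other 3 lincRNAs of the list did not pass. Epb41l4aos was at 38.7, 34.4 and 40.0 FPKM with si-NC and 49.5, 36.8 and 54.2 FPKM with si-circRtn4 (log2 fold change 0.29, adjusted p = 0.253), Snhg6 at 31.5, 26.0 and 30.4 FPKM with si-NC and 25.9, 26.0 and 26.5 FPKM with si-circRtn4 (-0.15, adjusted p = 0.311) and Snhg10 at 3.51, 4.72 and 3.51 FPKM with si-NC and 3.06, 5.22 and 3.51 FPKM with si-circRtn4 (-0.01, adjusted p = 0.98). By position, 7 of the 251 lincRNAs hold an annotated snoRNA or scaRNA on their strand, among them 2700038G22Rik, at 3.78, 6.27 and 5.6 FPKM with si-NC and 6.66, 8.50 and 6.73 FPKM with si-circRtn4 (0.43, adjusted p = 0.154, and 0.037 with the replicate block). The 5 snoRNA entries inside Snhg12 were listed at 0 in all libraries, so the small RNAs themselves were not measured.

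**Figure D3:**
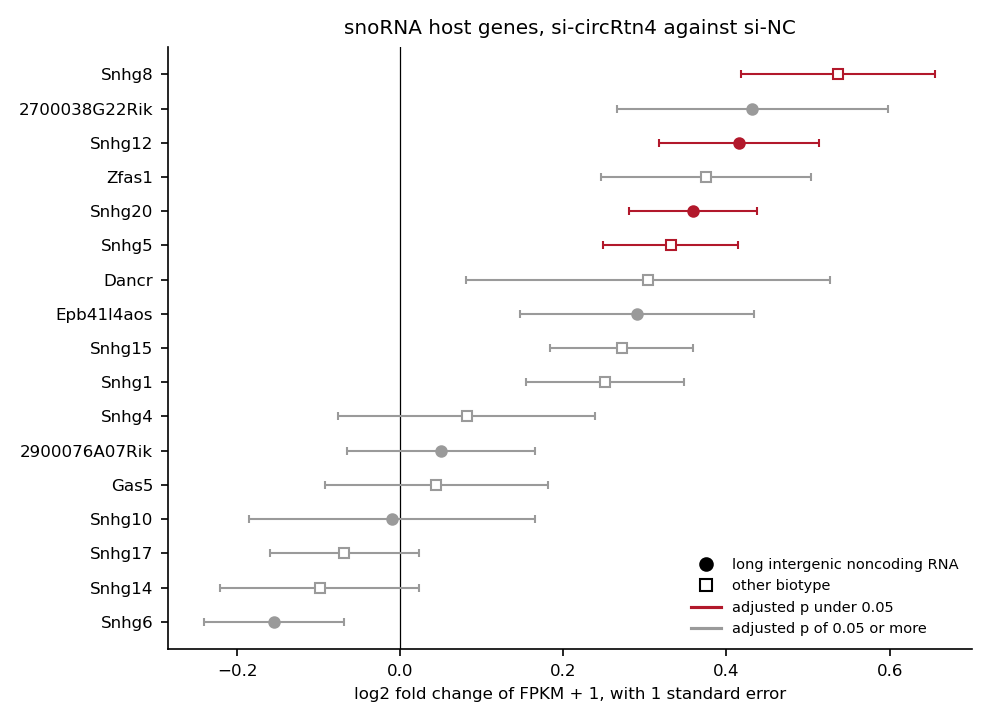
Log2 fold change of FPKM + 1 with 1 standard error for the snoRNA host genes tested and for the other lincRNAs that hold a snoRNA or scaRNA. Filled circles are lincRNAs, open squares other biotypes, and red marks an adjusted p under 0.05, which Snhg12, Snhg20, Snhg5 and Snhg8 reached.

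The window of 300 bases around the annotated start of Snhg12 (RefSeq, GRCm38, chr4:132308428-132308727, plus strand) is shown because Snhg12 is 1 of the 4 host genes that rose. It holds 2 copies of TGACG, the core of the element that CREB and ATF proteins bind (capitals, either strand), a motif present in 20.9% of 32544 windows of this length and in 26 of the 100 windows that lie within 500 bases of the start of a lincRNA described here.
Snhg12: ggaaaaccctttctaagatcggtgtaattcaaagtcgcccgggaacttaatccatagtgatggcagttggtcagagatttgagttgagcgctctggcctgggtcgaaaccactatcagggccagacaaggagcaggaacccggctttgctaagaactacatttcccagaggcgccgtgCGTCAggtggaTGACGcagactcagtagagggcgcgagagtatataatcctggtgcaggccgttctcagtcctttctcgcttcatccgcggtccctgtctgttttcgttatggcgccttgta

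The start windows of the called lower lincRNA with the most reads, and of a called higher one outside the snoRNA hosts, also that with the most reads, are shown beside it. That of 1700048O20Rik (chr9:121937025-121937324, plus strand) holds CCAAT, the motif of NF-Y, 6 times as its reverse complement ATTGG (capitals), spread over a tandem repeat. That of G730013B05Rik (chr16:50525995-50526294, plus strand) holds it 3 times on either strand. CCAAT is in 37.4% of all windows and in 43 of the 100 lincRNA windows, and no copy of it is in the Snhg12 window. A match is a description of these letters only.
1700048O20Rik: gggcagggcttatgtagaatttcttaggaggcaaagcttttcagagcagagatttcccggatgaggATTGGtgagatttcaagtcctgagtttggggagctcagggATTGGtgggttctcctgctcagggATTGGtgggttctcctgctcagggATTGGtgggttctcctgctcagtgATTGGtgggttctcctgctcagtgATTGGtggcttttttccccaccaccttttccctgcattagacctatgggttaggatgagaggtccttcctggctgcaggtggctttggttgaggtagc
G730013B05Rik: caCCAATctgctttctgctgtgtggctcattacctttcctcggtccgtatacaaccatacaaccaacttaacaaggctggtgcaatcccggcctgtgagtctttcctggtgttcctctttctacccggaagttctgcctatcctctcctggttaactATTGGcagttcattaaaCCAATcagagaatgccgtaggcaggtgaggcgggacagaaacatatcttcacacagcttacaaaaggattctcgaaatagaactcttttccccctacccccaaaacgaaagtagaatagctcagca

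None of the 10 most abundant lincRNAs was called, and the largest difference among them was a log2 fold change of -0.58. Gm26917, an entry of ribosomal RNA repeat sequence, led with 288, 290.3 and 303 FPKM with si-NC and 266, 359 and 227 FPKM with si-circRtn4 (log2 fold change -0.07, adjusted p = 0.815). Malat1 was at 201, 119.9 and 122 FPKM with si-NC and 123, 82.5 and 88.6 FPKM with si-circRtn4. Replicate 1 was the highest library in both groups, the groups overlapped, and the difference passed only with the replicate block (log2 fold change -0.56, adjusted p = 0.173 without it and 0.0076 with it). Gm34152, an RNA of chromosome 15 with no known role, passed only with the block too, at 39.6, 49.6 and 61.1 FPKM with si-NC and 25.8, 35.0 and 38.4 FPKM with si-circRtn4 (-0.58, adjusted p = 0.1 without the block and 0.00499 with it), although its groups did not overlap.

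2900097C17Rik, the mouse Norad, which binds Pumilio proteins and guards chromosome stability, was level at 64.4, 64.5 and 66.5 FPKM with si-NC and 69.6, 60.8 and 64.1 FPKM with si-circRtn4 (-0.01, adjusted p = 0.962). Gm42047 had a log2 fold change of -0.16, Gm10076 of 0.35, Gm47243 of -0.03 and Gm30835 of -0.17, with adjusted p-values from 0.248 to 0.953. Gm10076 is uncertain, since 69.9% of its 50-base words also occur in other annotated transcripts, most of them in those of the ribosomal protein gene Rpl41. For Gm42047 the share was 64.8%, led by Gm47761, and 14 of the 251 lincRNAs share over 50% of such words with another gene, of which Gm34030 alone was called.

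The X inactivation RNA Xist was expressed in these cells, at 32.0, 35.1 and 36.7 FPKM with si-NC and 45.1, 38.0 and 41.1 FPKM with si-circRtn4 (0.25, adjusted p = 0.129), with all knockdown libraries above all control libraries. Ftx, its neighbour on the X chromosome, was at 1.53, 1.41 and 1.43 FPKM with si-NC and 1.62, 1.67 and 1.57 FPKM with si-circRtn4 (0.09, adjusted p = 0.667). Neat1 was at 1.85, 1.55 and 1.98 FPKM with si-NC and 1.97, 2.44 and 2.20 FPKM with si-circRtn4 (0.20, adjusted p = 0.351), and so went in the other direction from Malat1, from which it lies 22036 bases away, with neither difference past the test. Of the 5 genes tested on the list of nuclear architecture and X inactivation, 0 were called, and 1 with the block.

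Pvt1, a lincRNA next to the proto-oncogene Myc, came close to the threshold. It was at 3.19, 3.62 and 3.82 FPKM with si-NC and 1.93, 2.41 and 2.65 FPKM with si-circRtn4, with no overlap (-0.45, adjusted p = 0.0545 without the block and 0.0216 with it), while Myc had a log2 fold change of 0.05 (adjusted p = 0.751). Lockd, downstream of the cell cycle inhibitor gene Cdkn1b, was at 1.89, 1.37 and 1.44 FPKM with si-NC and 1.55, 1.49 and 1.59 FPKM with si-circRtn4 (-0.01, adjusted p = 0.982). On the list of growth, p53 and RNA stability genes 5 were tested and 0 called. The counts were 0 of 4 for pluripotency-associated transcripts, which hold Lncenc1 and Platr20 (0.04, adjusted p = 0.845), 0 of 3 for imprinted loci and 0 of 1 for neural development. The last was Lhx1os, which starts 125 bases from the homeobox gene Lhx1 and was at 3.80, 3.28 and 2.25 FPKM with si-NC and 2.52, 2.95 and 3.74 FPKM with si-circRtn4 (-0.01, adjusted p = 0.986). The lists named 34 pluripotency-associated and 15 neural development genes, so most of them were below the level tested in N2a cells.

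MicroRNA host genes gave no call on their list (0 of 4 tested, and 1 with the block). By position, 9 of the 251 lincRNAs hold 25 annotated microRNA genes on their strand. Mir17hg, which carries the miR-17-92 cluster, was at 4.48, 7.36 and 6.04 FPKM with si-NC and 4.23, 6.12 and 7.45 FPKM with si-circRtn4 (-0.01, adjusted p = 0.982). A230057D06Rik, which spans the miR-344 cluster, was at 2.14, 1.59 and 1.71 FPKM with si-NC and 1.22, 0.967 and 1.14 FPKM with si-circRtn4 (-0.41, adjusted p = 0.0998). 6720427I07Rik, which holds let-7d, was at 1.15, 1.99 and 2.21 FPKM with si-NC and 1.99, 3.10 and 3.08 FPKM with si-circRtn4 (0.43, adjusted p = 0.218 and 0.0343 with the replicate block). Snhg20, which holds Mir6516, was the only one of the 9 that was called without the block.

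The study concerns miR-24-3p, a microRNA that circRtn4 was proposed to bind. One of its genes, Mir24-2, ends in the first bases of the lincRNA Gm26532 (chromosome 8, 84208920 to 84209609, plus strand). That RNA was at 2.21, 2.61 and 3.52 FPKM with si-NC and 2.85, 5.03 and 3.09 FPKM with si-circRtn4, groups that overlap (0.29, adjusted p = 0.421), and the Mir24-2 entry itself was listed at 0. The longest transcript of each lincRNA was scanned for seed sites. The sequences that define them are the microRNA, with its seed in capitals, and the siRNA strand as listed by the study, with the 7 bases that pair with the seed of its guide in capitals.
miR-24-3p: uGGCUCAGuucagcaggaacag
si-circRtn4: cttcagatgagACCCTTTt

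A miR-24-3p site (CTGAGCC) was present in 48 lincRNAs (19.1%), beside 14.3% of the other lincRNAs listed and 43.4% of the coding genes tested, whose transcripts are longer. Per kilobase the 3 sets held 0.152, 0.131 and 0.17 sites. The median log2 fold change was 0.11 for the 48 lincRNAs with a site and 0.03 for the 203 without. Neat1 held the most, with 7. Of the 20 called RNAs, 4 held a site, 3 of them higher (Snhg20, Gm21781 and Gm49313) and 1 lower (Gm33699). The bases around the Gm21781 sites recur almost unchanged around sites in Gm30074 and A430046D13Rik, which were not called. Those shown after the Snhg20 site are the same as in these RNAs, so such sites are not particular to the called RNAs. The sites of the 4 called RNAs are shown with up to 11 bases on either side, in the RNA's direction as DNA letters. The site is in capitals and its GRCm38 position is given.
Snhg20, chr11:117077710-117077716 (+): cagcttcaatgCTGAGCCatctctccagc
Gm21781, chr10:4392799-4392805 (+): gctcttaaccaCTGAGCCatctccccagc
Gm21781, chr10:4393908-4393914 (+): gctcttatccaCTGAGCCatctctccact
Gm49313, chr15:38253751-38253757 (-): tgactggatgtCTGAGCCagtaacttcag
Gm33699, chr9:61056100-61056106 (+): gtgcaaaggcaCTGAGCCaccaccgctgt
Gm33699, chr9:61056435-61056441 (+): acctatgagaaCTGAGCCtagtgggcagt

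A site for the guide of si-circRtn4 (ACCCTTT) was present in 25 lincRNAs (9.96%), beside 8.18% of the other lincRNAs and 22.5% of coding genes. Their median log2 fold change was 0.09, and that of the 226 without was 0.04. Among called RNAs, 1700048O20Rik with 2 sites and Gm34030 with 1 were lower, and Gm32856 with 1 was higher. The whole siRNA target was in 0 of the 251.
1700048O20Rik, chr9:121946068-121946074 (+): gggaatctgacACCCTTTtggggatttat
1700048O20Rik, chr9:121947001-121947007 (+): aagctgaataaACCCTTTcatccccaa
Gm34030, chr8:57334150-57334156 (-): agaaaagatttACCCTTTctgagctggga
Gm32856, chr8:129269521-129269527 (+): atttgagatacACCCTTTgagatgggaag

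The nearest tested coding gene lay a median of 9665 bases away. For 37 of the 251 lincRNAs (14.7%) it was itself called, where 10.0% of coding genes were, and in 25 of these 37 pairs both had the same sign. The 37 pairs hold 33 coding genes, since some lincRNAs share a neighbour. Over all pairs 141 of 251 had the same sign, and Pearson's r of the log2 fold changes was 0.147, a description over pairs that share libraries and, where they overlap, reads. It was 0.419 for the 31 lincRNAs that overlap their coding gene and 0.12 for the other 220. Of the 37 lincRNAs that start opposite a coding gene within 5000 bases, 26 had its sign (r = 0.235). Among the 20 called RNAs, the nearest coding gene was called for 3. Gata2 fell with Gm38708 and Litaf rose with Gm10832, while Zfp706, 47422 bases from Gm34590, fell (-0.36, adjusted p = 0.0364). With the replicate block Cpe, the coding gene nearest to Gm45589 at 852965 bases, and Klf10, nearest to Gm49313 at 36153 bases, passed as well, with log2 fold changes of -0.29 and -0.25, opposite in sign to the lincRNAs (adjusted p = 0.0748 and 0.122 without the block, 0.0492 and 0.047 with it).

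Some of the largest changes in neighbours came with lincRNAs that did not pass the test. The 3 pairs given here were chosen after their values were seen. Sv2c, a synaptic vesicle protein gene, had a log2 fold change of -1.27 (adjusted p = 0.00139, limma), and Gm29543, which starts 792 bases from it in the opposite direction, was at 5.14, 4.02 and 4.29 FPKM with si-NC and 3.20, 3.32 and 3.49 FPKM with si-circRtn4 (-0.33, adjusted p = 0.0837). Atf3, a stress-induced transcription factor, rose by 0.89 (adjusted p = 0.0127, limma), and D730003I15Rik, 6415 bases away, was at 0.550, 1.11 and 1.31 FPKM with si-NC and 2.17, 2.06 and 1.79 FPKM with si-circRtn4 (0.61, adjusted p = 0.0695). The homeobox gene Meis2 had a log2 fold change of -0.86 (adjusted p = 0.00377, limma), and 2700033N17Rik, 379 bases away, had one of -0.19 (adjusted p = 0.427).

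**Figure D4:**
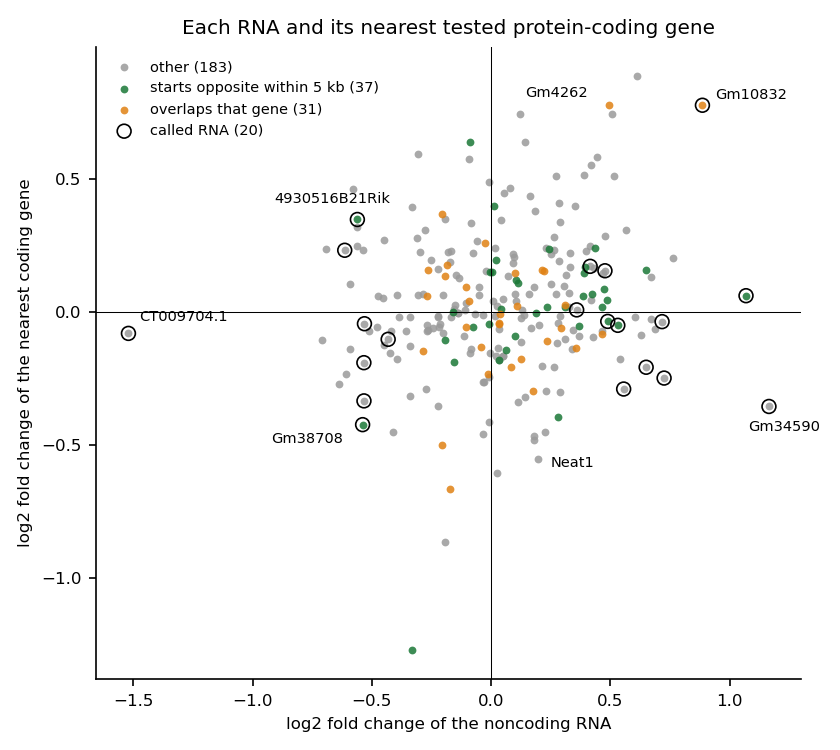
Log2 fold change of each of the 251 lincRNAs (horizontal) and of its nearest tested protein-coding gene (vertical). Orange marks the 31 lincRNAs that overlap that gene, green the 37 that start opposite it within 5000 bases, and circles the 20 called RNAs, of which Gm10832 and Gm38708 lie in the same quadrant as a called neighbour.

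The labels do not say that equal replicate numbers mark paired libraries, and they were treated as pairs on evidence from these data alone. With the number as a block 26 more lincRNAs passed, 13 higher and 13 lower, in addition to the 20. In 19 of the 26 the groups did not overlap. The 3 named next were picked after their values were seen. 1810044D09Rik had the largest rise of them, at 5.73, 3.14 and 2.94 FPKM with si-NC and 7.52, 7.4 and 6.51 FPKM with si-circRtn4 (log2 fold change 0.76, adjusted p = 0.0529 without the block and 0.0217 with it). 6330403K07Rik, at 20.7, 14.6 and 16 FPKM with si-NC and 12, 11.4 and 12.2 FPKM with si-circRtn4, had the lowest adjusted p without the block among the 13 falls gained (-0.48, adjusted p = 0.0523 and 0.0239). Gm45353 was at 13.7, 6.05 and 4.82 FPKM with si-NC and 9.20, 3.82 and 3.82 FPKM with si-circRtn4, so that replicate 1 was far above the others in both groups, and its adjusted p went from 0.536 to 0.0202.

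**Figure D5:**
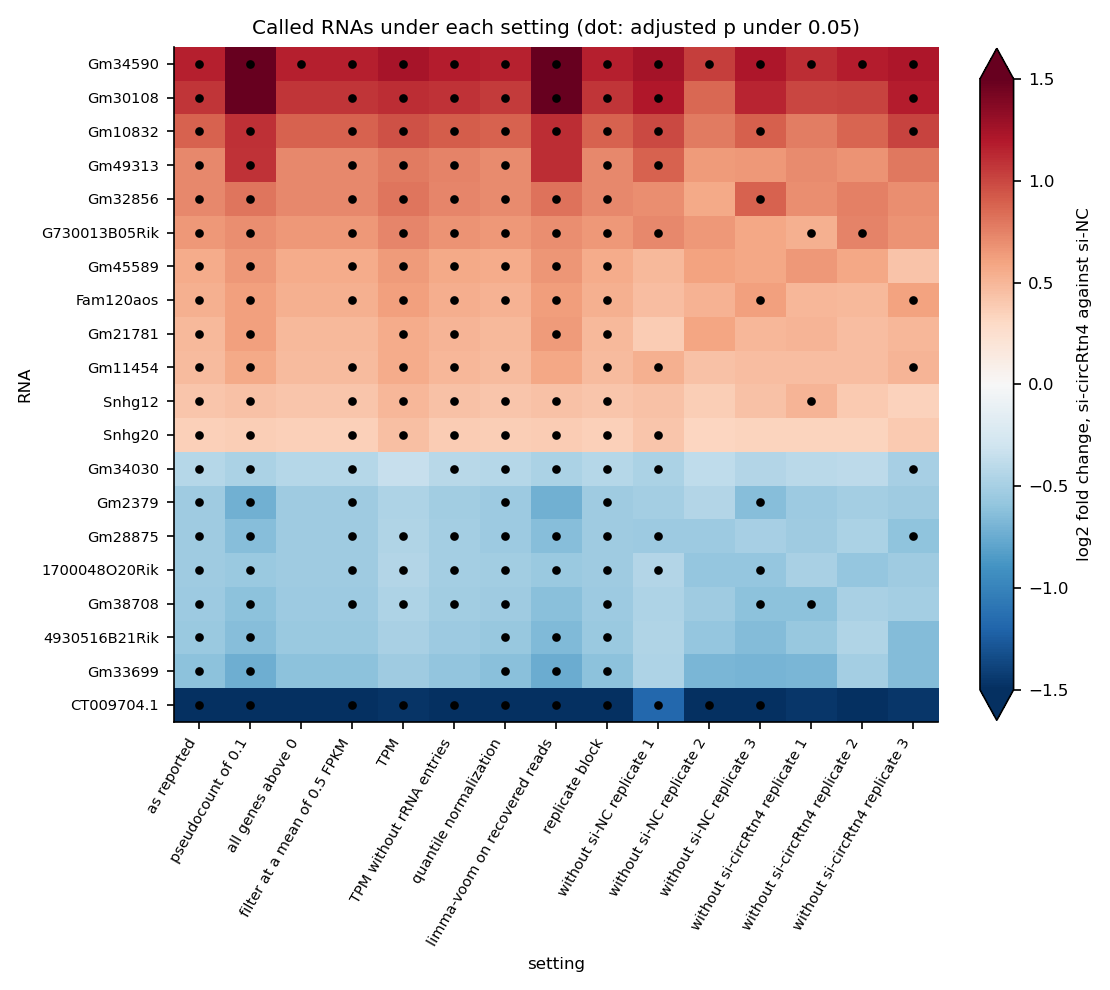
Log2 fold change (colour) of the 20 called lincRNAs (rows) as reported and in the 14 alternative fits (columns), with a dot where the adjusted p was under 0.05. Gm34590 has a dot in every column, all colours keep their sign along a row, and the dots thin out where all genes above 0 were tested or 1 library was left out.

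At the edge of the group, the 3 lincRNAs just inside the threshold were 4732487G21Rik (mean 1.0 FPKM), Gm16386 (1.01 FPKM) and Gm47882 (1.02 FPKM). The 3 just outside were Gm47177 (0.997 FPKM), Gm29156 (0.990 FPKM) and Gm26885 (0.989 FPKM).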

How the data were processed

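RNA-seq of 3 si-NC and 3 si-circRtn4 N2a libraries was taken from the gene table that the authors deposited, in which FPKM values, made by the authors from gene read counts, stand for 54532 genes. The submitters' processing notes list Bowtie 0.12.2 and the builds mm8 and mm9, while the table's coordinates match GENCODE M21 (GRCm38). The counting tool, its use of strand and the build it used are not given in the sources used here. A further 6 columns of per-sample values were not used.

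The 251 lincRNAs and the gene lists were chosen with earlier results of these data known. Log2(FPKM + 1) of all 12749 genes that reached a mean of 1 FPKM was fitted with limma 3.58.1 (trend, R 4.3.3), si-circRtn4 against si-NC, and p-values were adjusted by Benjamini-Hochberg over all of them. An exact permutation test of 3 against 3 cannot go below a two-sided p of 0.1. The code was tested on simulated data. Sequences and sites were handled with Python 3.11.15.

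Same-numbered libraries deviated together from their group means (correlations 0.331, 0.19 and 0.226), so the replicate numbers were treated as pairs on this evidence from the data, and a fit with the number as a block stands beside results whose call it changes. Other alternatives were a pseudocount of 0.1, other filters, TPM, quantile scaling, limma-voom on reads recovered from the FPKM values, and leaving out each library.

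Named were the 10 most abundant lincRNAs, up to 12 of the largest called rises and of the largest called falls whose groups did not overlap, with the nearest coding genes of some of them, lincRNAs on a role list, and the 3 on either side of the threshold. Other genes were named after their values were seen. Library totals were 13541198 to 15122063 reads, and a lincRNA with few reads has a wide counting error.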

Additional observations from a re-analysis of the deposited data

How the results depend on the processing

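The 20 called lincRNAs kept their direction in all 14 alternatives, and only Gm34590 was called in each. Testing all genes above 0 left 1 higher and 0 lower, the replicate block gave 25 and 21, and TPM, under which the median over all genes became 0.08 and over the lincRNAs 0.105, gave 4 lower. Of the 129 lincRNAs overlapping no other gene 8 were higher and 5 lower, and of the 63 with a mean of at least 5 FPKM 6 were higher and 4 lower, where 9.19% of all genes were called. Leaving out 1 library gave 2 to 12 higher and 1 to 6 lower, and 163 to 407 and 217 to 419 among all genes. The replicate block changed no call beyond those given with it and counted among the 26. Differences near 0 changed sign, the cause of which was not tested. TPM gave 0.044 for 2610044O15Rik8, 0.084 for 2900097C17Rik, 0.048 for Enc1, 0.041 for Fam120a, 0.018 for Gm26917, 0.057 for Gm47243, 0.063 for Lhx1os, 0.050 for Lockd, 0.068 for Mir17hg, 0.062 for Snhg10, 0.00244 for Xxylt1 and 0.034 for Zbtb2. TPM without the ribosomal RNA entries gave 0.014 for 2900097C17Rik, 0.00854 for Lhx1os, 0.0067 for Lockd, 0.0067 for Mir17hg and 0.0064 for Snhg10, and quantile scaling gave 0.034 for 2900097C17Rik. Without 1 library the log2 fold change ran from -0.12 to 0.059 for 2610044O15Rik8, -0.046 to 0.12 for 2900076A07Rik, -0.060 to 0.036 for 2900097C17Rik, -0.20 to 0.058 for Enc1, -0.26 to 0.073 for Gm26917, -0.32 to 0.19 for Gm47243, -0.17 to 0.11 for Lhx1os, -0.063 to 0.081 for Lockd, -0.17 to 0.18 for Mir17hg, -0.013 to 0.13 for Platr20, -0.018 to 0.041 for Sec14l1, -0.19 to 0.12 for Snhg10, -0.14 to 0.025 for Xxylt1 and -0.089 to 0.032 for Zbtb2. Depth limits the scarce RNAs most, since 71 of the 251 lincRNAs had a mean under 30 reads.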
